A study of Micromonas commoda with 15 samples.

Results

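The comparison described here sets 3 libraries of Micromonas commoda exposed to the iron salt FeCl3 against 3 libraries of control cultures, 6 of the 15 libraries of the series, over all gene models of the deposited table. The members were chosen by the titles of the samples. M. commoda is a unicellular marine green alga, and all cultures were of 1 strain (Noum17/RCC299), grown in L1 medium at 20 °C with 12 h of light and 12 h of darkness. The FeCl3 group received FeCl3 at the iron concentration of the Fe2O3 particle group (2.4 mg/L iron, given in the labels beside 3e-05 M Fe2O3). The mass and the molarity do not amount to the same quantity of iron, so the exact dose is not settled. The control group received neither particle nor salt. The metal was added 24 h after 140 ml flasks had been prepared from early exponential cultures, and cells from 100 ml were harvested after 48 h of exposure, with an RNA integrity number above 9. The other 9 libraries were from cultures with Fe2O3 particles, ZnO particles or ZnSO4, 3 of each, and enter below only where FeCl3 cultures differed from them.

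Micromonas belongs to the smallest green algae known, with a single chloroplast and a single flagellum, and is common in coastal and open-ocean plankton. Iron is a cofactor of photosystem I, of cytochromes and of the iron-sulphur proteins that carry electrons in photosynthesis, respiration and nitrate assimilation. In seawater, ferric iron from a salt hydrolyses and forms poorly soluble oxyhydroxides unless a chelator holds it, and L1 medium itself contains FeCl3 with EDTA. Control cultures were therefore supplied with iron, and the comparison tests added ferric iron on top of that supply.

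The deposited table names gene models by identifiers that it pairs with no gene name. Of its 10300 identifiers, 0 matched the 10125 genes of the RefSeq table at hand (assembly ASM9098v2), so no function is given for any model and neither the species nor a pathway could be checked by marker genes. The identifiers of 2 models that rose and 2 that fell are printed, and the others are named by rank.

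Counts per library summed to between 44206961 and 48969454 in FeCl3 cultures and between 33473041 and 45657254 in control cultures. At least 1 read was found for 10127 to 10170 models in FeCl3 libraries and for 10085 to 10111 in control libraries. These ranges did not overlap, and an exact two-sided permutation test of the difference of 55.7 models gave p = 0.1 (n = 3 each), the smallest p that 3 against 3 allow. Depth was higher in most FeCl3 libraries too, and its part in this difference was not tested. Levels are given below in CPM (counts scaled to library size) after scaling by the trimmed mean of M values (TMM), which corrects for composition. TMM factors were 0.953 to 1.07 in FeCl3 libraries and 0.708 to 0.933 in control libraries. The labels do not say whether replicates came from separate precultures, so p-values measure the spread between these samples, which may be technical.

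FeCl3 changed a large share of the transcriptome by modest amounts. Of 10012 models tested, 4393 (43.9%) differed from control cultures at an adjusted p under 0.05 in edgeR's quasi-likelihood test, with 2049 higher (20.5%) and 2344 lower (23.4%). The median rise was 1.72-fold and the median fall 1.66-fold (log2 fold changes of 0.79 and -0.73, beside a median SE of 0.184 and 0.174). Changes of less than 1.5-fold made up 551 of the rises and 678 of the falls (5.5% and 6.77% of models tested). At least 2-fold changes were 642 higher and 593 lower (6.41% and 5.92% of models tested), and at least 4-fold changes 46 and 39 (0.459% and 0.39%). The 3 FeCl3 libraries did not overlap the 3 control libraries in 4762 models (47.6%), and 3976 of these (39.7% of models tested) were also called. In bulk RNA, a change in every cell and a change in the share of cells in some state cannot be told apart.

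**Figure D1:**
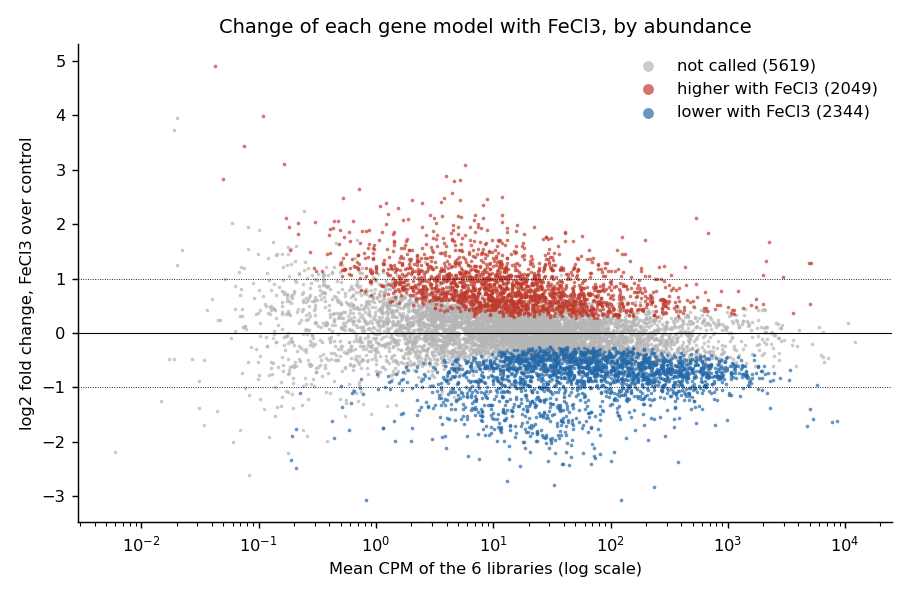
Log2 fold change of each of the 10012 gene models (y axis, FeCl3 over control) against its mean CPM over the 6 libraries (x axis, log scale), with the 2049 models called higher in red, the 2344 called lower in blue and the 5619 not called in grey. Dotted lines mark 2-fold changes. The blue points lie further to the right than the red ones, and few points pass 4-fold.

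The balance of rises and falls changed with the scaling. Scaling by total counts alone gave 3160 higher and 1348 lower, and the median log2 fold change over all models was 0.29, against 0.01 with TMM. With the models under 5 CPM left out, which changes both the TMM factors and the models tested (7905), it was 2613 higher and 1517 lower, with a median of 0.14. Levels and directions below are relative to the TMM scale, on which the median model was nearly still.

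Most models that were not called were also measured closely enough to limit a change. Of the 5619 without a call, 4453 (79.2%) had a 95% confidence interval of the fold change that stayed within 2-fold in either direction, and 2392 stayed within 1.5-fold. The interval of the other 1166 reached 2-fold, so that such a change was not excluded in them.

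The model that rose most was wlab.247353.1. The ranking covers called models with separate groups and an average of 5 CPM or more, of which there were 1402 higher and 2009 lower. wlab.247353.1 stood at 12.5, 7.93 and 10.2 CPM in the 3 FeCl3 libraries and at 1.48, 1.53 and 0.504 CPM in the 3 control libraries. Every FeCl3 library was at least 5-fold above every control library. Its rise was 8.54-fold (log2 fold change 3.10 with an SE of 0.317, quasi-likelihood adjusted p = 5.02e-06 in edgeR). The next, wlab.245400.1, stood at 12.3, 8.00 and 7.26 CPM with FeCl3 and at 1.36, 1.70 and 0.829 CPM in controls. FeCl3 replicate 1 was the highest of the 6, and the groups were again far apart. The rise was 6.99-fold (log2 fold change 2.80 with an SE of 0.323, quasi-likelihood adjusted p = 1.19e-05 in edgeR).

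The rise at rank 3 had 25.9, 17.6 and 16.4 CPM in FeCl3 libraries and 4.05, 2.86 and 3.75 CPM in control libraries, a log2 fold change of 2.49 (SE 0.187). Rank 7 was the most even of the 12, with 19.6, 18.5 and 20.2 CPM in FeCl3 libraries and 4.17, 4.45 and 4.25 CPM in control libraries. The libraries of each group lay close together, and the log2 fold change of 2.18 had an SE of 0.114. Rank 11 was the only abundant one among the 12, at 1144, 677 and 803 CPM in FeCl3 libraries and 320.3, 171 and 115 CPM in control libraries. The control libraries of this model differed nearly 3-fold among themselves, and its log2 fold change of 2.11 had an SE of 0.313. The other 11 of the 12 were of low to moderate abundance, with means of 8.67 to 20.0 CPM in FeCl3 cultures and 1.17 to 4.29 CPM in controls. Folds over the 12 ran from 4.24 to 8.54.

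The falls reached more abundant models. The model wlab.248661.1 stood at 14.8, 26.6 and 37.3 CPM in FeCl3 libraries and at 184, 192 and 286 CPM in control libraries. The lowest control library was about 5-fold above the highest FeCl3 library. The change was 8.42-fold downward (log2 fold change -3.07 with an SE of 0.260, quasi-likelihood adjusted p = 1.61e-06 in edgeR). The model wlab.233596.1 had 31.1, 59.6 and 83.4 CPM with FeCl3 and 427, 337 and 484 CPM in controls. FeCl3 replicate 1 was lowest and FeCl3 replicate 3 highest of the exposed libraries in both of these models. Its log2 fold change was -2.84 with an SE of 0.261 (quasi-likelihood adjusted p = 2.31e-06 in edgeR).

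The fall at rank 3 stood at 4.56, 7.69 and 12.5 CPM with FeCl3 and at 43.8, 42.8 and 85.6 CPM in controls, a log2 fold change of -2.80 (SE 0.312). Control replicate 3 was well above the other control libraries in this model, as at rank 4, which had 2.07, 3.38 and 4.94 CPM with FeCl3 and 16.3, 15.2 and 37.1 CPM in controls. Rank 10 was the most abundant of the 12 and the most even, at 114, 134 and 119 CPM in FeCl3 libraries and 721, 603 and 583 CPM in control libraries. It fell 5.20-fold (log2 fold change -2.38, SE 0.148). Over the 12 falls the means were 3.46 to 122 CPM in FeCl3 cultures and 22.9 to 636 CPM in controls, with folds of 5.11 to 8.42. FeCl3 replicate 1 held the lowest level in 11 of these 12 models, rank 5 being the exception. All 24 models kept their direction and their call without any 1 of the 6 libraries and under each of 10 other settings of scaling, tool, filter and model.

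**Figure D2:**
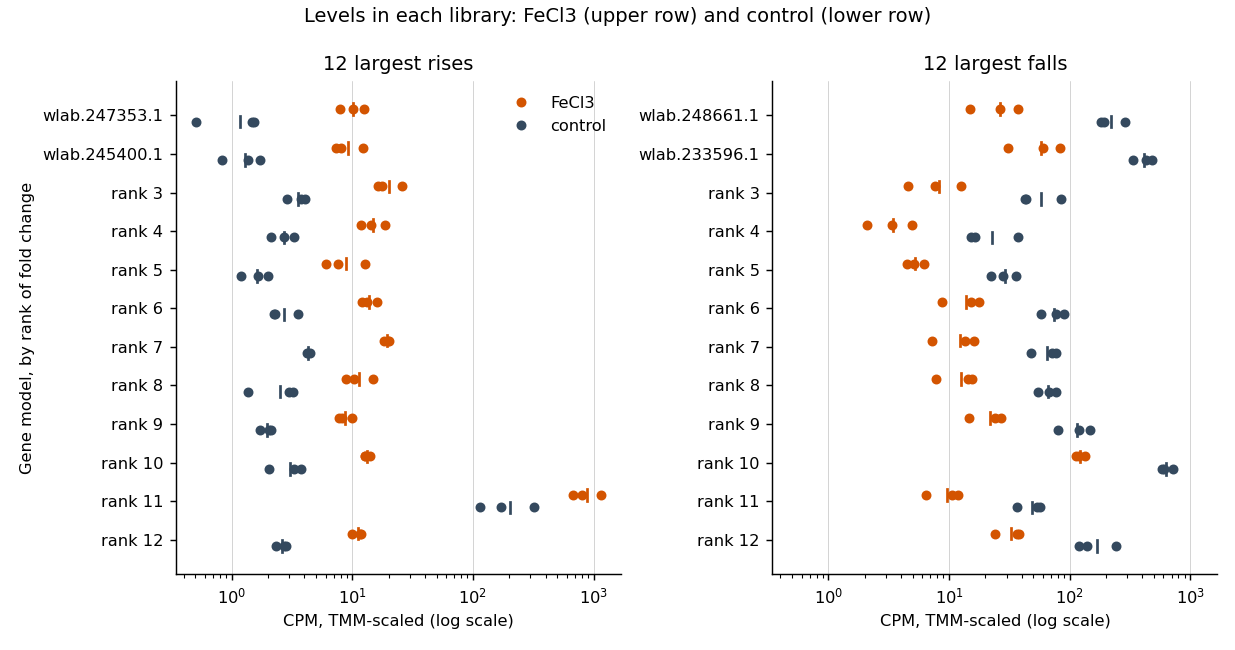
TMM-scaled CPM (x axis, log scale) of the 12 models that rose most (left) and the 12 that fell most (right) in the 3 FeCl3 libraries (orange, upper row of each model) and the 3 control libraries (dark blue, lower row), with bars at the means. The groups are apart in every model, as the rule that picked them required, and the control means of the falls lie above the FeCl3 means of the rises, except for the rise at rank 11.

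On the TMM scale, falls were mostly steeper than rises among the most abundant models that changed. The 5 most abundant models called higher had means of 3984 to 7228 CPM with FeCl3 and of 1962 to 4082 CPM in controls. The first of them had 6029, 7946 and 7708 CPM in FeCl3 libraries and 2775, 3851 and 2322 CPM in control libraries, a 2.42-fold rise (log2 fold change 1.28, SE 0.248). Rank 3, at 6961 ± 389.9 CPM with FeCl3 and 2858 ± 607 CPM in controls (SD, n = 3 each), rose 2.44-fold. Ranks 2 and 4 changed by less than 1.5-fold, and their calls remained in only 2 and 1 of the 6 fits that left out a library.

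The most abundant model that fell stood at 4029, 4410 and 4043 CPM in FeCl3 libraries and at 19139, 9841 and 9521 CPM in control libraries. Control replicate 1 was far above the other controls, while the FeCl3 libraries lay close together. Its fall was 3.08-fold (log2 fold change -1.63 with an SE of 0.306, quasi-likelihood adjusted p = 0.000729 in edgeR), and the log2 fold change lay between -1.80 and -1.22 without any 1 library. Rank 2 had nearly the same profile, with 3697, 3935 and 3650 CPM in FeCl3 libraries and 17486, 8866 and 8684 CPM in control libraries. The ratio of rank 1 to rank 2 stayed between 1.09 and 1.18 in all 15 libraries. Whether these models share reads could not be tested without their sequences, and the pair may be 1 observation. Rank 4, at 2662 ± 293 CPM with FeCl3 and 7961 ± 4111 CPM in controls (SD, n = 3 each), was also highest in control replicate 1, and the ratio of rank 1 to it ran from 1.17 to 1.82. In the order in which the models were deposited, ranks 1 and 4 stood close together and ranks 2 and 5 next to each other. Their neighbours were mostly called lower too, and whether these falls are independent of each other was not tested. Under the 10 other settings, the 5 falls shrank to log2 fold changes of -1.30, -1.31, -0.67, -1.25 and -1.10 at the least. The abundant rises at ranks 1, 3 and 5 reached up to 1.52, 1.57 and 1.28, so sizes in the 2 directions overlapped across settings.

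The share of models called, and the direction, moved with abundance. Classes were set by mean CPM over all 15 libraries. Of the 2106 models under 5 CPM, 378 were higher (17.9%) and 152 lower (7.22%). Of the 2926 models between 5 and 20 CPM, 785 were higher (26.8%) and 530 lower (18.1%). Between 20 and 100 CPM the order turned, with 646 of 3112 higher (20.8%) and 867 lower (27.9%). Between 100 and 500 CPM, 204 of 1465 were higher (13.9%) and 614 lower (41.9%), and of the 403 models at 500 CPM or more, 36 were higher (8.93%) and 181 lower (44.9%). At least 2-fold changes were called in 13.7%, 15.1%, 10.8%, 9.28% and 8.19% of these classes, from scarcest to most abundant. The median absolute log2 fold change was 0.50, 0.42, 0.38, 0.48 and 0.51 in the same order. The median SE was 0.308 under 5 CPM and 0.149 between 20 and 100 CPM, and its part in the share called was not tested. Many abundant models called lower stood in long runs of neighbouring models, in the order in which the models were deposited. Few models in these runs were called higher. What these runs contribute to the shares by abundance, and to the gradient described next, was not tested.

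The median log2 fold change went down with each step of abundance: 0.26 under 5 CPM, 0.13 between 5 and 20, -0.07 between 20 and 100, -0.31 between 100 and 500, and -0.44 at 500 CPM or more. The gap between the last class and the first was -0.71. It was -0.68 with total counts only, where the class at 500 CPM or more had 102 higher and 134 lower and the class between 100 and 500 CPM had 405 higher and 403 lower. The gap was -0.58 with classes set by the 9 libraries outside the comparison, and -0.57 without FeCl3 replicate 1. It is therefore relative: the abundant models stood lower than the scarce ones on each of these scales, while the zero point between them depended on the scaling. Against the same controls, medians of the first and last class were 0.52 and -0.52 with Fe2O3 particles, 0.47 and -0.49 with ZnO particles and 0.33 and -0.60 with ZnSO4. The gradient was thus not confined to FeCl3, and since all 4 exposures share the 3 control libraries, what these controls contribute to it was not tested.

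**Figure D3:**
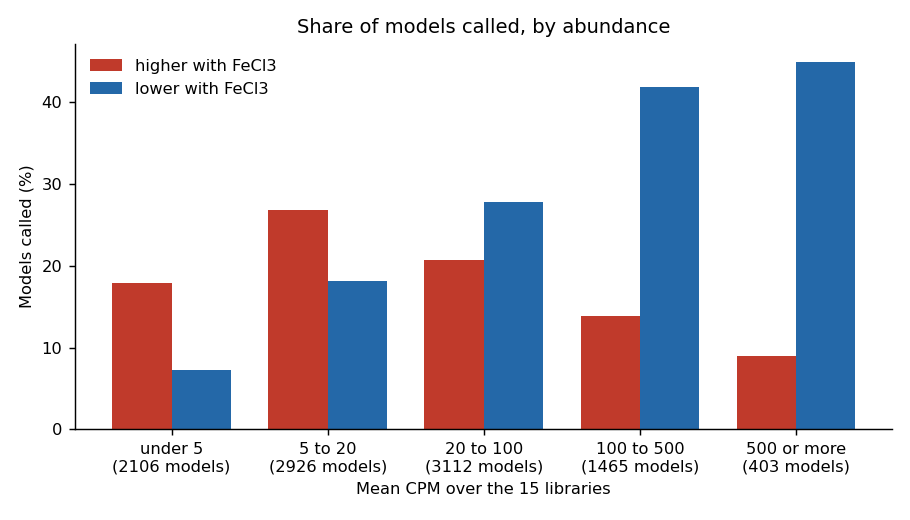
Share of gene models called higher (red) or lower (blue) with FeCl3 than in controls (y axis, percent of the class) in 5 classes of mean CPM over the 15 libraries (x axis, with the number of models). The share called lower grows from 7.22% to 44.9% from the scarcest to the most abundant class.

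In terms of messenger mass, the models called higher held 15.6% ± 2.48 of the counts of tested models in FeCl3 libraries and 7.75% ± 1.55 in control libraries (SD, n = 3 each). The models called lower held 32.5% ± 3.47 in FeCl3 libraries and 47.3% ± 2.56 in control libraries. These shares describe the sets called on the TMM scale, which the same counts had chosen. The 100 most abundant models of each library took 28.1% ± 0.485 of its counts in FeCl3 cultures and 27.8% ± 1.83 in controls (SD, n = 3 each), a difference within the spread of the controls.

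The 3 FeCl3 libraries responded in the same direction and by different amounts. On the first principal component of the 6 libraries, which held 66.5% of their variance, FeCl3 replicates 1, 2 and 3 scored 52.1, 28.2 and 20.1, and control replicates 1, 2 and 3 scored -43.1, -15.1 and -42.2. FeCl3 replicate 1 lay furthest from the controls, and control replicate 2 lay nearest to the exposed cultures. Among all tested models, the interquartile range of the log2 difference from the control mean was 1.16 in FeCl3 replicate 1, 0.807 in FeCl3 replicate 2 and 0.717 in FeCl3 replicate 3. At least 2-fold above the control mean were 1227, 649 and 560 models in these libraries, and at least 2-fold below it 1230, 501 and 406.

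Over the 2049 models called higher, the median log2 difference from the control mean was 0.99, 0.73 and 0.66 in FeCl3 replicates 1, 2 and 3. Over the 2344 called lower it was -0.98, -0.65 and -0.56. Of the 4393 called models, 78.0% had their largest difference from the control mean in FeCl3 replicate 1. In 66.6% of them control replicate 2 was the control library nearest to the FeCl3 mean. The log2 difference of FeCl3 replicate 1 from the control mean was a median of 1.36 times that of FeCl3 replicates 2 and 3 in the rises and 1.51 times in the falls. These are ratios of log2 differences, not of levels. Without FeCl3 replicate 1 the test called 1460 models higher and 1501 lower, and 1405 and 1493 of these were among the calls made with it. Without control replicate 2 it called 2464 higher and 2576 lower. In all 6 fits that left out 1 library, 1205 of the rises (58.8%) and 1420 of the falls (60.6%) were called again, and in none did a called model pass in the opposite direction.

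**Figure D4:**
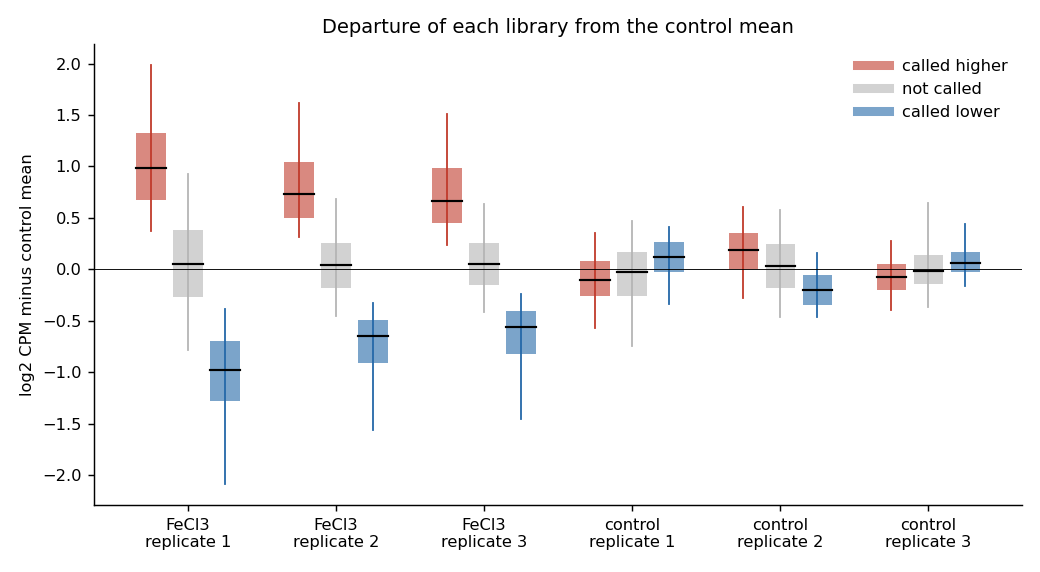
Log2 CPM of each library minus the mean of the 3 control libraries (y axis) for the models called higher (red), not called (grey) and called lower (blue). Boxes span the middle 50% of models, black lines are medians and whiskers run between the 5th and 95th percentiles. FeCl3 replicate 1 departs most, with medians of 0.99 and -0.98, and control replicate 2 leans toward the FeCl3 libraries, with medians of 0.18 and -0.20.

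Set directly against each of the other exposures, FeCl3 cultures differed in more models than against controls. Against Fe2O3 particles the number was 5532 (55.3%), of which FeCl3 cultures were higher in 2777 and lower in 2755. Against ZnO particles the number was 5251 models (52.4%), 2809 higher and 2442 lower, and against ZnSO4 5314 (53.1%), 3046 higher (30.4%) and 2268 lower (22.7%). The last split turned to 1434 higher and 3436 lower with total counts only and to 1625 higher and 2574 lower without FeCl3 replicate 1. The ZnO split became 1995 and 2673, and 2257 and 2492, under the same changes. The labelled doses of iron and zinc differ (2.4 and 0.8 mg/L), so the comparisons between metals are not matched for dose. The zinc value stands beside 1e-05 M ZnO, which does not amount to the same mass of zinc, so that dose is not settled either.

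The rises of FeCl3 cultures were often below those of cultures with Fe2O3 particles. Of the 2049 models that FeCl3 raised, 823 (40.2%) were lower with FeCl3 than with Fe2O3 particles, beside 27.5% of all models, and 328 (16%) were higher, beside 27.7%. Of the 2344 models that FeCl3 lowered, 1059 (45.2%) were higher with FeCl3 than with these particles and 313 (13.4%) were lower. Choosing models by high FeCl3 levels favours those in which FeCl3 exceeds any other group, and choosing by low levels the reverse, so both majorities run against the choice. Both majorities against Fe2O3 particles were also present with sets called anew on total counts only (931 of 3160 rises lower and 599 higher, 763 of 1348 falls higher and 119 lower) and without FeCl3 replicate 1 (669 of 1460 rises lower and 202 higher, 836 of 1501 falls higher and 155 lower). Against ZnO particles the rises were near even, with 628 higher (30.6%) and 564 lower (27.5%), beside 28.1% and 24.4% of all models. Of the falls, 822 (35.1%) were higher with FeCl3 than with ZnO particles and 393 (16.8%) lower. Against ZnSO4 the majorities ran with the choice. Of the FeCl3 rises, 1032 (50.4%) were higher with FeCl3 than with ZnSO4 and 392 (19.1%) lower, beside 30.4% and 22.7% of all models. Of the falls, 250 (10.7%) were higher and 708 (30.2%) lower. Without FeCl3 replicate 1 the rises were even, with 420 of 1460 higher (28.8%) and 419 lower (28.7%), beside 16.2% and 25.6% of all models. The share higher was still above that of all models. On total counts only, 944 of 3160 rises were higher (29.9%) and 705 lower (22.3%), beside 14.3% and 34.3% of all models. The majority among the falls was present in both alternatives. Without FeCl3 replicate 1, 595 of 1501 falls were lower (39.6%) and 100 higher (6.66%), beside 25.6% and 16.2% of all models. On total counts only, 940 of 1348 were lower (69.7%) and 44 higher (3.26%), beside 34.3% and 14.3%.

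The largest changes were set beside the other exposures in the same way. The 46 models at least 4-fold higher with FeCl3 had a median log2 fold change of 2.24, and against the same controls the same models had medians of 3.43 with Fe2O3 particles, 3.23 with ZnO particles and 2.59 with ZnSO4. In the direct tests 30 of the 46 were lower with FeCl3 than with Fe2O3 particles and 1 was higher, beside 27.5% and 27.7% of all models. Against ZnO particles 26 were lower and 0 higher, beside 24.4% and 28.1% of all models. Against ZnSO4 15 were lower and 10 higher, beside 22.7% and 30.4%, so the majority of higher calls seen over all rises was not present among these 46. Only 14 of the 46 averaged at least 5 CPM. The 39 models at least 4-fold lower had a median of -2.27 with FeCl3, -3.58 with Fe2O3 particles, -3.18 with ZnO particles and -1.14 with ZnSO4. Of these, 29 were higher with FeCl3 than with Fe2O3 particles and 5 lower, and 23 were higher than with ZnO particles and 4 lower, while against ZnSO4 0 were higher with FeCl3 and 36 lower. The choice by low FeCl3 levels favours the majority against ZnSO4.

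Single models show how far the exposures diverged. The model wlab.247353.1 stood at 10.2 ± 2.31 CPM with FeCl3, 13.3 ± 3.07 with Fe2O3 particles, 11.2 ± 0.903 with ZnO particles and 8.70 ± 2.09 with ZnSO4 (SD, n = 3 each). None of its direct contrasts with FeCl3 passed, with log2 fold changes (FeCl3 over the other) of -0.39 (SE 0.269), -0.14 (SE 0.269) and 0.23 (SE 0.269). The rise at rank 8 reached only 11.4 ± 3.22 CPM with FeCl3, against 84.3 ± 11.2 CPM with Fe2O3 particles (log2 fold change -2.89, SE 0.241) and 40.3 ± 2.56 CPM with ZnO particles. The rise at rank 7 was the reverse case, at 19.4 ± 0.885 CPM with FeCl3 and 14.5 ± 1.18 CPM with Fe2O3 particles (log2 fold change 0.42 with an SE of 0.106, quasi-likelihood adjusted p = 0.00314 in edgeR). Among the falls, ranks 3 to 12 were each lower with FeCl3 than with ZnSO4, by log2 fold changes of -0.83 to -1.86. The fall at rank 10 was also lower with FeCl3, at 122 ± 10.3 CPM, than with Fe2O3 particles, at 197 ± 28.2 CPM (log2 fold change -0.69, SE 0.142). Choosing these falls by their low FeCl3 levels favours such differences, as choosing by high levels does for the rise at rank 7.

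A small group of models stood at the extreme of the whole series with FeCl3. In 226 models (2.26%) FeCl3 cultures were higher than each of the other 4 groups in the direct tests, and in 170 (1.7%) they were lower than each. The median log2 fold changes of the first group were 0.61 over control, 0.80 over Fe2O3 particles, 0.92 over ZnO particles and 0.93 over ZnSO4. Those of the second were -0.81, -1.17, -1.22 and -1.03. At least 2-fold differences from all 4 groups were present in 6 of the 226 and 35 of the 170. The 3 FeCl3 libraries lay above all 12 other libraries in 200 of the 226 and below all of them in 125 of the 170. Over all tested models 346 (3.46%) lay above and 195 (1.95%) below all 12. These counts lean on single libraries: they were 87 and 99 without FeCl3 replicate 1, and 145 and 92 without control replicate 3.

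Of the models above every other group, rank 1 had 77.6, 52.4 and 41.7 CPM in FeCl3 libraries and 30.3, 30.3 and 20.0 CPM in control libraries. Its means were 26.6 ± 6.47 CPM with Fe2O3 particles, 26.7 ± 3.03 with ZnO particles and 21.7 ± 3.66 with ZnSO4 (SD, n = 3 each), close to the 26.9 ± 5.93 CPM of controls. Rank 2, a more abundant model, had 403, 429 and 498 CPM in FeCl3 libraries and 199, 239.6 and 194 CPM in control libraries, with 187 ± 28.1, 161 ± 23.3 and 102 ± 16.9 CPM with Fe2O3 particles, ZnO particles and ZnSO4. FeCl3 over control gave a log2 fold change of 1.07 (SE 0.165), and ZnSO4 over control one of -1.04 (SE 0.165), so that this model moved in opposite directions with the salts. Rank 4 was the most even, at 12.0, 11.1 and 12.4 CPM with FeCl3, while the means of the other 4 groups lay between 5.01 and 5.73 CPM. In each of these 5 models the FeCl3 libraries lay above all 12 others, and the calls held without any 1 of the FeCl3 and control libraries.

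Of the models below every other group, ranks 3 and 4 were the clear cases. Rank 3 had 6.13, 11.2 and 7.90 CPM in FeCl3 libraries and 14.9, 38.1 and 36.1 CPM in control libraries, and means of 25.2 to 33.0 CPM in the other exposures. Rank 4 had 2.49, 2.21 and 3.32 CPM in FeCl3 libraries and 5.07, 9.69 and 9.33 CPM in control libraries, and means of 7.94 to 9.93 CPM elsewhere. Ranks 1, 2 and 5 overlapped the controls or rested on control replicate 3. Rank 1 had 0.383, 0.354 and 0.997 CPM in FeCl3 libraries and 0.680, 0.850 and 5.44 CPM in control libraries, against 20.0 ± 6.74 CPM with ZnSO4. Its log2 fold change over control was -1.99 (SE 0.639) and became -0.43, without a call, when control replicate 3 was left out. That of rank 5 was -1.51 and became 0.15 likewise.

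**Figure D5:**
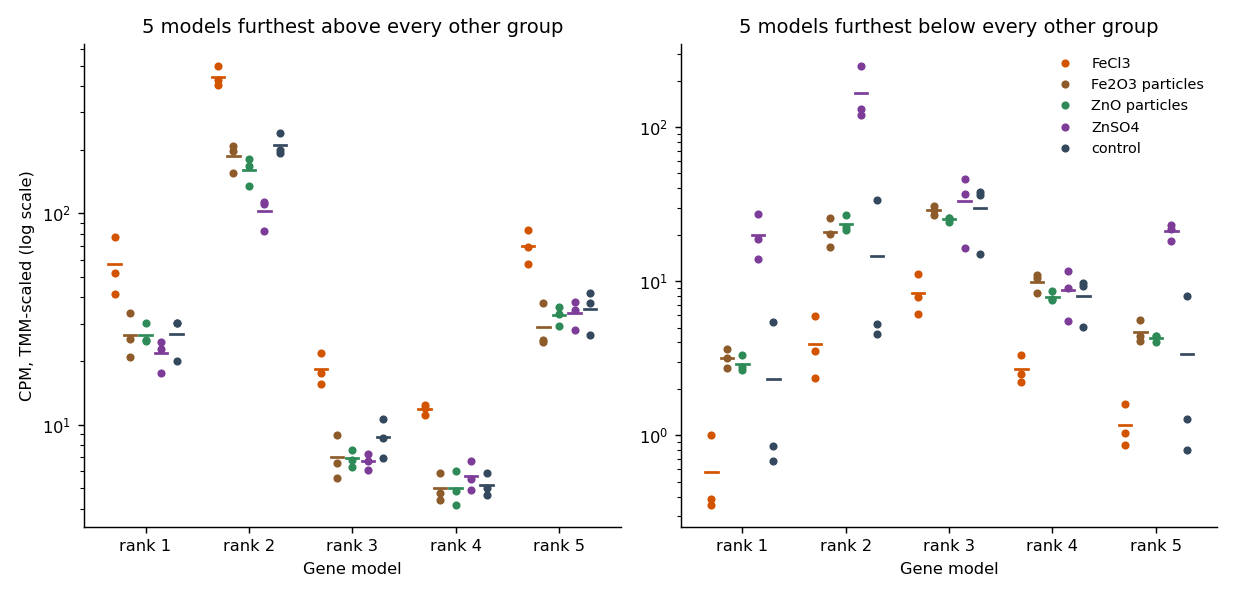
TMM-scaled CPM (y axis, log scale) of the 5 models furthest above (left) and the 5 furthest below (right) every other group with FeCl3, for the 3 libraries of each of the 5 groups (points) and their means (bars). FeCl3 libraries lie above all others in the left panel, and in the right panel ranks 1, 2 and 5 show 1 control library far above the others.

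A further pair of sets bears on how the counts may be read. The table marks 29 models as duplicates, of which 27 were tested, and 18 of these were lower with FeCl3 (66.7%, beside 23.4% of all models) and 0 higher. Their partners gave the same counts, 18 lower and 0 higher of 27, so marked and unmarked copies cannot be counted as separate genes. The duplicates were abundant, with a median of 218 CPM, and 14 of the 20 at or above 100 CPM were lower, beside 795 of all 1868 tested models at that level (42.6%). Many of the duplicates were consecutive in the deposited order, inside a long run of models mostly called lower. Their shares therefore do not count independent models, and an excess of falls among duplicates as such was not tested. At the other end, 50 models had no read in any control library and at least 1 in FeCl3 libraries, and 10 had the reverse. The largest of the 50 summed to 12 reads over the 3 FeCl3 libraries and the largest of the 10 to 7 reads over the controls. Only 3 and 1 of them passed the filter on low counts, and 1, the one with 12 reads, was called, so a switch from silent to expressed was not seen at this depth beyond a few reads.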

How the data were processed

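Poly(A)-selected RNA was sequenced in 15 libraries, 3 in each of 5 groups taken from the sample titles. The submitters' processing notes list RSEM 1.3.0, Trim Galore 0.4.0, CASAVA 2.17 and STAR, the last with no version. Build and annotation names were not given in the sources used here. Per gene model, the authors deposited whole-number counts with no normalization. Their name for the table calls them HTSeq counts, so the counting program is not settled. Of the 10300 rows, 6 carry 3 repeated identifiers and were kept apart.

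edgeR 4.0.16 was run in R 4.3.3. After filterByExpr (minimum count 10), 10012 models were left and 288 dropped, 16 of them without any read. A single quasi-likelihood model, with a mean for each group, covered all 15 libraries after TMM scaling, with a common dispersion equal to a 17.3% coefficient of variation. Contrasts were called at a Benjamini-Hochberg adjusted p under 0.05. Each SE is the absolute log2 fold change over the square root of F. Principal components used log2 CPM (prior count 2). The steps were tested on simulated data. Alternatives covered DESeq2 1.42.0, limma 3.58.1 (voom), other scalings, filters and thresholds, a fit to the compared groups alone, a replicate block, and each library left out.

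Printed identifiers are the 2 largest rises and 2 largest falls among called models whose groups do not overlap and that average 5 CPM or more. By rank, the 12 largest in each direction, the 5 most abundant of each, and the 5 furthest above and below every other group (at 5 CPM or more over all libraries) were described. The comparison, these rules and the abundance classes were chosen with earlier results of these data known. The alternatives for the abundance classes, and those for the rises and falls set against other exposures, were chosen after seeing the data. Planned lists of genes by function were not run because no model has a name.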

Additional observations from a re-analysis of the deposited data

Results flagged for a closer look

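By direct contrasts in edgeR's quasi-likelihood model, the effect of FeCl3 differed from that of another exposure in 3 of the 4 models printed by identifier. The model wlab.245400.1 rose less with FeCl3 than with Fe2O3 particles, by a log2 fold change of -1.17 (FeCl3 over particles), and less than with ZnO particles, by -0.88. The model wlab.248661.1 fell less with FeCl3 than with Fe2O3 particles, at 1.97, and than with ZnO particles, at 1.89. The model wlab.233596.1 likewise stood higher with FeCl3 than with Fe2O3 particles, at 2.45, and than with ZnO particles, at 2.08. None of the 4 passed against ZnSO4, where the edgeR adjusted p-values of wlab.248661.1 and wlab.233596.1 were 0.0563 and 0.0531. The 226 models above and the 170 below every other group with FeCl3 met the same criterion in 4 contrasts at once.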

How the results depend on the processing

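The 4 printed models kept their direction and their call under each alternative run. With total counts only, FeCl3 against control gave 3160 higher and 1348 lower, FeCl3 against ZnSO4 1434 higher and 3436 lower, and 101 models lay below every other group. With a mean of at least 5 CPM the falls against control were 1517, and with only the groups compared 1557. The cause was not tested. An adjusted p under 0.01 left 1188 higher and 1490 lower against control, and 76 above and 60 below every other group. Tested against a change of 1.5-fold, the calls were 494 higher and 548 lower against control, 1174 and 1379 against Fe2O3 particles, 1038 and 1247 against ZnO particles, 953 and 1123 against ZnSO4, and 4 above and 9 below every other group. These last thresholds are stricter by construction. Leaving out 1 library gave 1460 to 2464 higher and 1501 to 2576 lower against control, 2434 to 2905 and 2406 to 2875 against Fe2O3 particles, 2257 to 2935 and 2148 to 2533 against ZnO particles, 1625 to 3181 and 2017 to 2574 against ZnSO4, and 87 to 336 above and 92 to 227 below every other group. With the replicate number as a block the calls against control were 2095 higher and 2332 lower, within 1.5 times of the counts without it. Deviations of same-numbered FeCl3 and control libraries had correlations of -0.112, -0.0472 and 0.244 across models, so the numbers were not taken as pairs. DESeq2 called 2248 higher and 2576 lower, and limma voom 1990 and 2291. At 3 libraries a group, the models under 5 CPM had a median SE of 0.308, about double that of models between 20 and 100 CPM, at 0.149.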
